A study of Mus musculus with 12 samples.

Results

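The genes described here encode receptors for colony-stimulating factors and related cytokines of blood-forming cells, together with Cd34, a surface marker of progenitors. They are Csf1r, Csf2ra, Csf2rb, Csf2rb2, Csf3r, Kit, Cd34 and Il6ra, taken by their symbols, and they make up 8 of the 55487 genes in the count table and 8 of the 14618 that passed the filter on low counts. Their RNA was measured in Ly6C+ monocytes, in 4 groups of 3 libraries. The KO monocytes carried the genotype label KO and came from fetal liver at E13.5 (embryonic day). The Mixed monocytes were labelled genotype WT and came from fetal liver at E15.5, and the sources used here do not give what Mixed stands for. The bone marrow (BM) monocytes were labelled genotype WT, with no age. The WT monocytes came from fetal liver, WT 1 at E13.5 and WT 2 and WT 3 at E15.5. cMaf and Zeb2 appear in the title of the series and a line called Z165KO in its design text, but which allele the KO libraries carry is not given in the sources used here. Whether a group's libraries came from different animals is not labelled, so the p-values cover the spread between libraries, which may be technical.

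Colony-stimulating factors steer progenitors into monocytes and granulocytes and keep the mature cells alive. Csf1r and Kit are receptor tyrosine kinases, for CSF1 and IL-34 and for stem cell factor. Csf2ra, Csf3r and Il6ra belong to the cytokine receptor family and signal through Janus kinases and STAT proteins: Csf2ra binds GM-CSF, Csf3r binds G-CSF and Il6ra binds IL-6 and pairs with the shared chain encoded by Il6st. Csf2rb encodes the common beta chain that GM-CSF, IL-3 and IL-5 share, and Csf2rb2 encodes the mouse beta chain that serves IL-3. In monocytes Csf1r is the growth and survival receptor, while Csf3r is best known from neutrophils, and Kit and CD34 are best known from stem and progenitor cells.

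The pair of beta chains is the place where sequence bears on the values. Csf2rb (ENSMUSG00000071713) lay on the plus strand at chr15:78325752-78353847 and Csf2rb2 (ENSMUSG00000071714) on the minus strand at chr15:78282507-78305721 of GRCm38, the assembly that the files' build mm10 denotes, with 20030 bases between them. Over 2628 aligned bases their coding sequences (2688 and 2634 bases, GENCODE M21) were 95.2% identical. Of all stretches of 50 bases in the Csf2rb coding sequence, 26.2% also occurred in a Csf2rb2 transcript, and of stretches of 100 bases 11%. Reads from such stretches could not be assigned by sequence alone, so the split between the genes rests on the authors' estimate, while their sum does not. The first pair of lines below shows a coding window of 60 bases in which the genes differed at 13 places, with the differing bases in capitals. The last line shows the window beside it, which was identical in both genes and is given as read from Csf2rb.
Csf2rb, GRCm38 chr15:78338893-78338952, plus strand: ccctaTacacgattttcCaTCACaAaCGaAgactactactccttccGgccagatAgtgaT
Csf2rb2, GRCm38 chr15:78294379-78294438, minus strand: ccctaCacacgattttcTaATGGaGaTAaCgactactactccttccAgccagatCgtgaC
Csf2rb, GRCm38 chr15:78338834-78338893, plus strand: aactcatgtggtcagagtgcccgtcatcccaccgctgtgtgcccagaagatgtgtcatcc

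The other members lay apart from each other. Csf1r (ENSMUSG00000024621) was at chr18:61100598-61132149, plus strand, and its end overlaps the oppositely oriented Hmgxb3. Csf2ra (ENSMUSG00000059326) was at chr19:61223957-61228429, minus strand, and Csf3r (ENSMUSG00000028859) at chr4:126024550-126044440, plus strand. Kit (ENSMUSG00000005672) was at chr5:75574916-75656722, plus strand. Cd34 (ENSMUSG00000016494), at chr1:194938819-194961279 on the plus strand, overlaps the antisense gene Gm16897, and Il6ra (ENSMUSG00000027947), at chr3:89864059-89913196 on the minus strand, overlaps the antisense gene Gm42809. The library kit does not mark strand, so reads of Csf1r, Cd34 and Il6ra cannot be told apart from those of these partners where they overlap.

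Total counts per library ran from 17384956 to 24473502. Zeb2 was at 23.8, 20.1 and 22.5 CPM in the KO libraries, against 141, 143 and 165 CPM in the WT libraries, where CPM is counts per 1e+06 counts on TMM-scaled library sizes. Among markers of classical monocytes, Ly6c2 was at 1372 to 1684 CPM in KO, 695 to 704 in Mixed, 1907 to 1993 in BM and 490.3 to 549 in WT, and none of the 12 listed markers was at 0 throughout a group. Of the 12, 4 were called higher and 7 lower in KO than in WT by edgeR, where 38.1% of all genes tested were called. F13a1 was 6.21-fold and Vcan 5.01-fold lower in KO. The 12 markers summed to 7424 to 8435 CPM in KO, 13799 to 13912 in Mixed, 39706 to 40494 in BM and 10244 to 11702 in WT. Markers of other cells were not alike between groups: the 13 neutrophil markers summed to 11012 to 13968 CPM in KO, 3525 to 3829 in Mixed, 756 to 933 in BM and 4432 to 6346 in WT, and the 10 dendritic cell markers to 816 to 885, 22.6 to 26.9, 233 to 272 and 28.7 to 44.4 CPM in the same order. In bulk libraries, fewer cells of a type and less RNA per cell cannot be told apart.

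In KO monocytes the CSF1 receptor and the progenitor marker Cd34 were lower than in WT, and the G-CSF receptor was higher. Csf1r was at 353, 354 and 394 CPM in KO, against 771, 794 and 845 CPM in WT, so every KO library lay below every WT library. It fell by 1.13 on the log2 scale (2.19-fold, SE 0.0563, edgeR adjusted p = 5.29e-13). Cd34 was at 178, 165 and 180.0 CPM in KO, against 524, 519.9 and 560.3 CPM in WT. That was the largest called decrease of the 8 genes, 3.07-fold (log2 -1.62, SE 0.0551, edgeR adjusted p = 9.8e-16). Csf3r went the other way, with 276, 286 and 288 CPM in KO, against 142, 151 and 167 CPM in WT (1.85-fold, log2 0.89, SE 0.0593, edgeR adjusted p = 7.41e-11).

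Of the GM-CSF, IL-3 and IL-5 receptor chains, 2 of the 3 members fell in KO. Csf2ra was at 109, 113 and 115 CPM in KO, against 154, 139 and 149 CPM in WT (1.31-fold lower, log2 -0.39, SE 0.118, edgeR adjusted p = 0.0193). The groups did not overlap, but the call was lost without KO 1 (adjusted p = 0.0701), KO 2 (0.0575), WT 1 (0.0668) or WT 3 (0.0634), and with embryonic day as a covariate (0.142, edgeR). Csf2rb2 was at 52.9, 40.1 and 48.5 CPM in KO, against 73.2, 75.1 and 71.8 CPM in WT (1.55-fold lower, log2 -0.64, SE 0.0815, edgeR adjusted p = 1.77e-06). Csf2rb, the more abundant chain, was at 625, 596 and 628 CPM in KO and 587, 639 and 588 CPM in WT, with overlapping groups. Its log2 difference was 0.03, with a 95% interval of -0.09 to 0.14 and an edgeR adjusted p of 0.742, and it turned to -0.14 on deposited TPM values with limma (adjusted p = 0.101), a scale on which the median of all genes stood at -0.139.

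Kit and Il6ra were lower in each KO library than in each WT library without passing the threshold. Kit was at 19, 12.6 and 21 CPM in KO, against 25.9, 29.6 and 34.1 CPM in WT (log2 -0.76, SE 0.298, edgeR adjusted p = 0.0736). It passed in 3 of 24 alternatives: limma-voom (0.0231), the 2 groups fitted alone (0.011) and the fit without BM 3 (0.00114). Il6ra was at 78.2, 51.6 and 56.1 CPM in KO, against 108, 98.3 and 88.5 CPM in WT (log2 -0.66, SE 0.243, edgeR adjusted p = 0.0629). It passed in 6 of 24 alternatives, among them DESeq2 (0.0275) and the fits without KO 1 (0.0332), Mixed 1 (0.0444) or Mixed 2 (0.00563).

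In all, 5 of the 8 genes were called between KO and WT, 1 higher and 4 lower. Over all genes tested 38.1% were called, 18.2% higher and 19.9% lower. Without overlap between the groups were 7 of the 8, against 47.4% of all genes. The median log2 difference of the 8 genes was -0.65 and that of all genes tested -0.029. The WT group is not of a single age, and WT 1 is its only library from the embryonic day of the KO libraries. WT 1 alone, at 771 CPM of Csf1r, 524 of Cd34 and 142 of Csf3r, lay on the same side of every KO library as WT 2 and WT 3 did. When the fetal liver libraries were fitted with embryonic day as a covariate, Csf1r, Cd34, Csf3r and Csf2rb2 kept their calls. In that fit only the WT libraries inform the term for day, as KO and Mixed each have a single day.

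**Figure D1:**
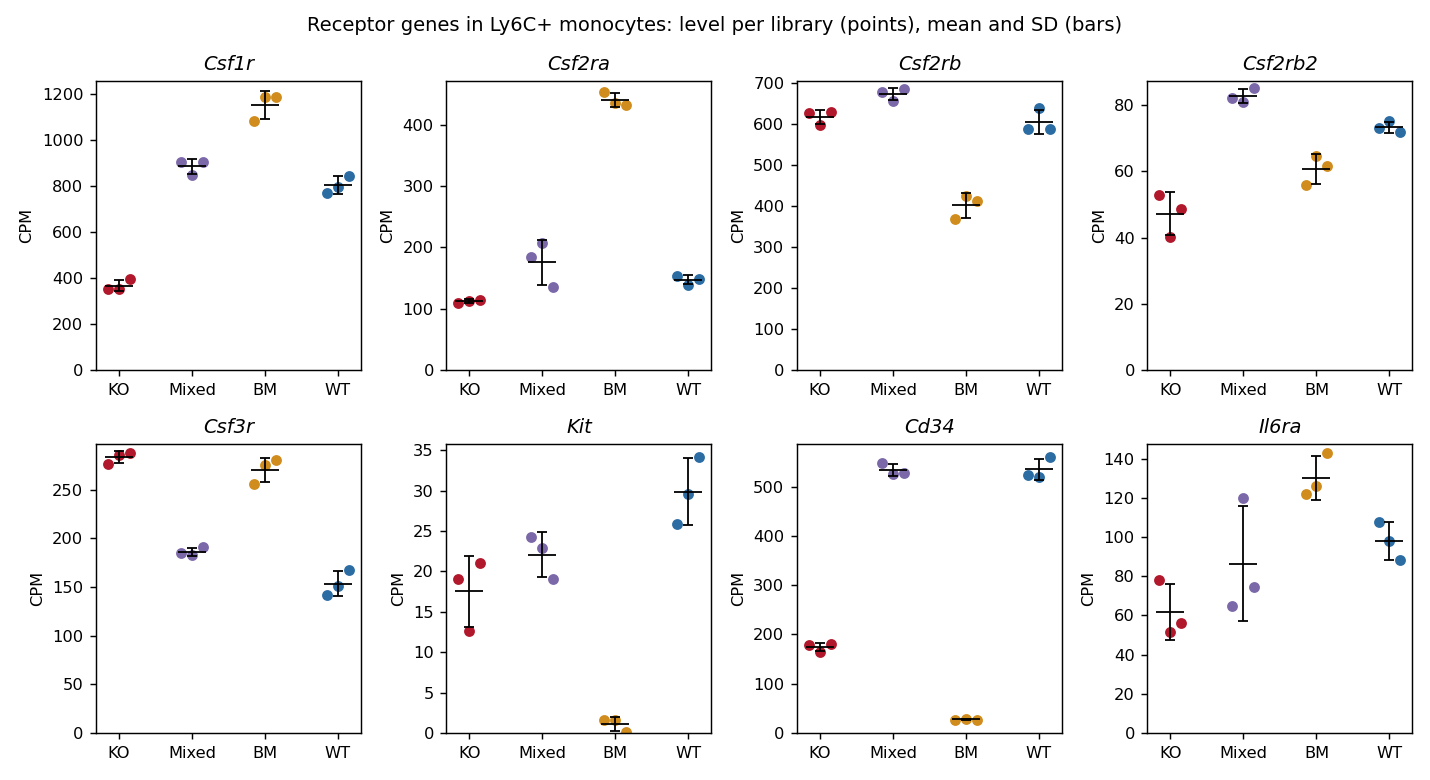
CPM (linear axes from 0) of the 8 receptor genes, 1 panel per gene, with KO, Mixed, BM and WT from left to right; points are libraries, and bars give the mean and SD of 3. KO libraries lie below the WT libraries for Csf1r (353 to 394 against 771 to 845) and Cd34 (165 to 180.0 against 519.9 to 560.3) and above them for Csf3r, while Kit and Cd34 are lowest in BM.

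The balance between receptors moved with these levels. On deposited TPM values, which are per transcript length and so allow levels of different genes to be compared, Csf1r over Csf3r was 1, 0.949 and 1.08 in the KO libraries and 4.17, 4.26 and 3.92 in the WT libraries. In KO the receptors for CSF1 and G-CSF were thus at about equal TPM, and in every WT library Csf1r was the higher by a factor of 3.92 or more. The ratio of Csf2ra to Csf2rb was 0.718 ± 0.0356 in KO and 0.964 ± 0.132 in WT (SD, n = 3), without overlap. Csf2rb made up 92.2 to 93.7% of the summed counts of both beta chains in KO and 88.9 to 89.5% in WT. That sum itself was 663 ± 23.4 CPM in KO and 678 ± 31.2 CPM in WT (SD, n = 3), with overlapping groups (two-sided exact permutation p = 0.6). For Il6st over Il6ra, the ratio of the shared signalling chain to the IL-6 binding chain, KO had 0.42 ± 0.0667 and WT 0.233 ± 0.0345. Each ratio whose groups did not overlap had a two-sided exact permutation p of 0.1, the smallest that 3 against 3 libraries can give, so none of them can pass 0.05.

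**Figure D2:**
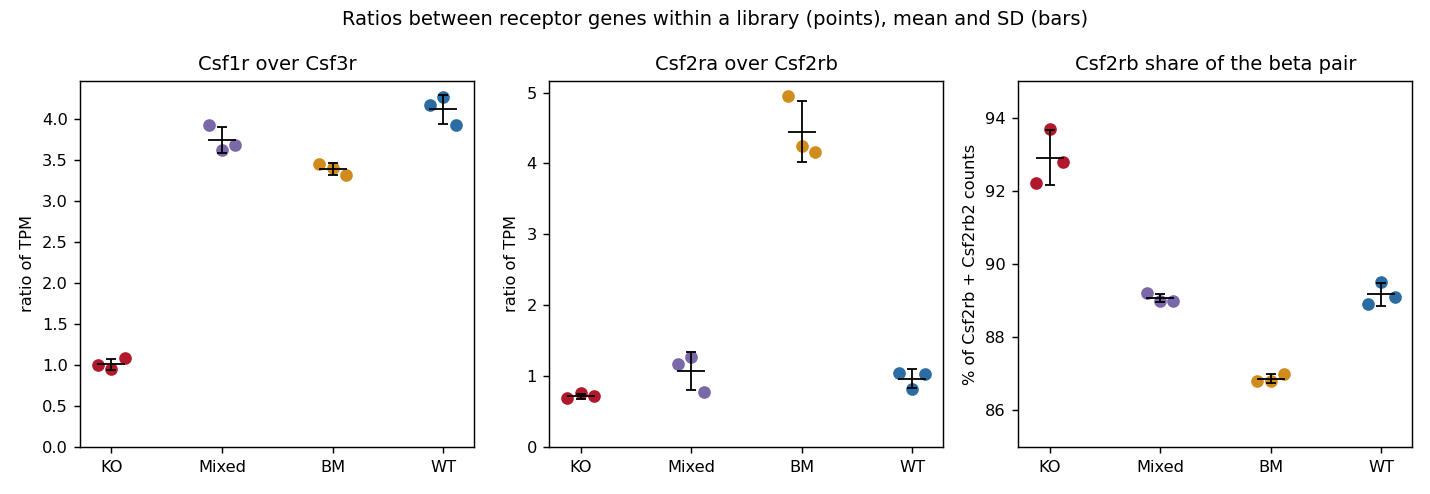
Ratios of receptor levels in each library (points) with the mean and SD of each group (bars), for KO, Mixed, BM and WT from left to right: Csf1r over Csf3r and Csf2ra over Csf2rb from TPM, and the percent of beta chain counts from Csf2rb, on an axis that does not start at 0. Csf1r over Csf3r is near 1 in KO and from 3.31 to 4.26 elsewhere, and Csf2ra over Csf2rb is from 4.16 to 4.95 in BM.

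Among the ligands of these receptors, Csf3 and Il3 had no count in any library, and Csf2 had counts in KO 2 alone. A single library without a count, taken alone, allows up to 3 counts by counting error, and the libraries together, if alike, allow fewer. Only Csf1 and Flt3l of the 9 listed ligands passed the filter, and neither was called between KO and WT by edgeR, DESeq2 or limma-voom, while 1 had an unadjusted edgeR p under 0.05. Flt3l, the ligand of Flt3, was at 8.82, 7.41 and 6.93 CPM in KO and 6.36, 5.81 and 6.48 CPM in WT (edgeR adjusted p = 0.0943). Of 10 related receptors tested, 2 were higher and 3 lower in KO, where 38.1% of all genes tested were called. Flt3, a kinase of the Kit and Csf1r family that marks progenitors and dendritic cells, was at 66.9, 60.7 and 70.3 CPM in KO, against 6.42, 7.51 and 5.5 CPM in WT (10.2-fold, edgeR adjusted p = 1.45e-15). The dendritic cell markers moved with it, with 7 of 9 tested higher in KO and 1 lower, among them H2-Aa (40.7-fold higher), a class II antigen-presenting chain; their part in the Flt3 result was not tested. Il3ra, which pairs with the beta chains to bind IL-3, was 1.95-fold lower in KO (7.26 ± 0.976 CPM in KO and 14.2 ± 0.954 CPM in WT, SD, n = 3, edgeR adjusted p = 2.58e-06), and Il11ra1, the IL-11 receptor, 3.41-fold lower.

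Of 23 genes of proximal signalling, 11 were higher and 5 lower in KO, where 38.1% of all genes tested were called. Jak2, the kinase of the GM-CSF, IL-3 and G-CSF receptors, was 2.29-fold higher (44.2 ± 3.89 CPM in KO and 19.4 ± 2.46 CPM in WT, SD, n = 3) and the Src-family kinase Fgr 1.78-fold higher. Stat5a and Stat5b, which GM-CSF and IL-3 receptors activate, were 1.37-fold and 1.25-fold lower, and the kinase Fes 1.26-fold lower. Of 15 negative regulators, 6 were higher and 4 lower. Cish, a SOCS-family inhibitor that STAT5 is known to induce, was at 12.7, 7.78 and 11.1 CPM in KO, against 1.79, 1.47 and 2.21 CPM in WT (5.77-fold higher, edgeR adjusted p = 4.51e-08), while the adaptor Dok2 was 2.85-fold lower. Of 12 listed STAT targets, 3 were higher, among them Ccnd2 (2.66-fold) and Bcl6 (2.28-fold), and 3 lower, namely Osm (2.35-fold), Id1 (2.03-fold) and Myc (1.56-fold). The medians of the 3 lists, at log2 0.23 for proximal signalling, 0.15 for negative regulators and 0.05 for STAT targets, stood beside -0.029 for all genes.

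Of 16 transcription factors known to act on receptor genes or named by the series, 2 were higher and 8 lower in KO, with a list median of -0.28. The share called over all genes tested was 38.1%. Zeb2, a zinc-finger repressor, was 6.75-fold lower (edgeR adjusted p = 3.95e-17) and Cebpa, a factor of myeloid progenitors known to act on Csf3r and Il6ra, 3.69-fold lower. Spi1, which encodes PU.1, known to act on Csf1r, was 1.22-fold lower (126 ± 3.17 CPM in KO and 153 ± 16.9 CPM in WT, edgeR adjusted p = 0.00348). Cebpe, a factor of late granulocyte development, was 3.42-fold higher and Irf8, a factor of monocytes and dendritic cells, 2.71-fold higher.

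The markers of other cells did not all move the way of the member they share a cell type with. Between KO and WT 38.1% of all genes tested were called. Of 16 stem and progenitor markers, 3 were higher in KO, led by Ly6a (log2 3.75), and 7 lower, among them the granule genes Mpo (2.65-fold), Ctsg (2.36-fold) and Elane (2.12-fold). The list summed to 3084 to 3528 CPM in KO and 6684 to 7553 CPM in WT. Mpo, at 1829 to 2199 CPM in KO and 5043 to 5916 CPM in WT, held most of that sum, and without it the sum, an alternative chosen after the values were seen, was 1235 to 1339 CPM in KO and 1637 to 1649 CPM in WT. Of 13 neutrophil markers 8 were called higher and none lower, with Ly6g at 13.4, 11.9 and 8.28 CPM in KO, against 0.502, 0.581 and 1.41 CPM in WT. The granule genes Ngp (log2 -0.80), Ltf (-0.54) and Camp (-0.39) were not called. Ltf varied between libraries, at 454, 98.9 and 137 CPM in KO and 178, 236 and 587 CPM in WT. The part of the progenitor and neutrophil markers in the results for Cd34 and Csf3r was not tested. Endothelial cells also carry CD34, and the endothelial markers summed to 75.4 to 80.7 CPM in KO and 18.5 to 31.3 CPM in WT. Pecam1 held nearly all of that sum. Without Pecam1, an alternative likewise chosen after the values were seen, the sum was 0.546 to 1.73 CPM in KO and 0.938 to 3.76 CPM in WT, with overlap. Emcn was at 0 in every KO and Mixed library and in WT 1 and WT 2. Cdh5 stayed under 1 CPM in every library, at 0.227, 0.42 and 0.718 CPM in KO and 0.446, 0.447 and 0.799 CPM in WT. The part of endothelial cells in the Cd34 result was not tested. Mast cells are known for Kit: their markers summed to 8.41 to 17.8 CPM in KO and 8.42 to 16.6 CPM in WT, with Tpsb2 and Cma1 at 0 in both groups. Hdc held most of that sum, at 7.09, 5.52 and 14.5 CPM in KO and 7.53, 6.84 and 15.7 CPM in WT. Mcpt8, a basophil protease, was the called member, at 1.41, 2.15 and 1.73 CPM in KO, against 0.223, 0.268 and 0.235 CPM in WT (7.09-fold higher, edgeR adjusted p = 1.66e-05).

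**Figure D3:**
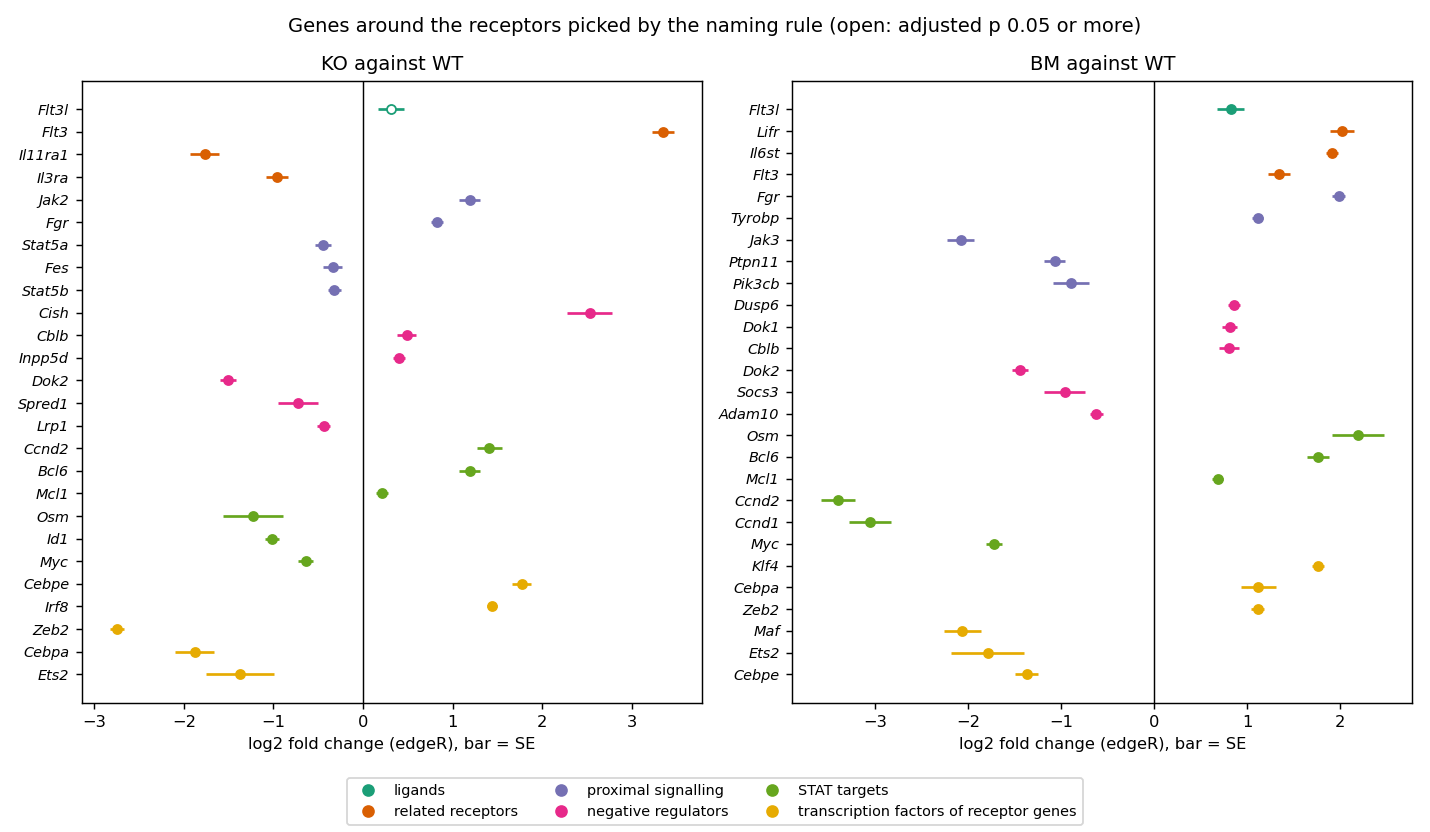
edgeR log2 fold change with SE bars of genes around the receptors, for KO against WT on the left and BM against WT on the right; colours give the list and open points have an adjusted p of 0.05 or more. In KO, Flt3 (3.35) and Cish (2.53) have the highest values and Zeb2 (-2.75) the lowest; in BM, Ccnd2 (-3.40) and Ccnd1 (-3.05) have the lowest.

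In BM monocytes Kit and Cd34 were far lower than in WT fetal liver, the beta chains were lower, and the ligand-binding receptors for CSF1, GM-CSF and G-CSF were higher. Kit was at 1.65, 1.63 and 0.149 CPM in BM, from 30, 35 and 3 counts, against 25.9, 29.6 and 34.1 CPM in WT. BM 3 lay far below the other BM libraries, whose values were alike, and the difference was 26.1-fold (log2 -4.71, SE 0.42, edgeR adjusted p = 5.09e-06). On TPM values with limma it came to 9.25-fold. Cd34 was at 27.1, 29 and 25.7 CPM in BM, against 524, 519.9 and 560.3 CPM in WT (19.6-fold lower, log2 -4.29, SE 0.0637, edgeR adjusted p = 4.83e-22). Of 16 stem and progenitor markers 9 were lower in BM, among them Adgrg1 (10.5-fold), Mpo (7.29-fold) and Ms4a3 (4.06-fold), and 5 higher, among them Cd48 (2.33-fold). Between BM and WT 64% of all genes tested were called. The list summed to 2126 to 2346 CPM in BM and 6684 to 7553 CPM in WT. Without Mpo, which was at 685 to 829 CPM in BM and held most of the sum in WT, it summed to 1441 to 1516 CPM in BM and 1637 to 1649 CPM in WT. Their part in the results for Kit and Cd34 was not tested.

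Csf2ra had the largest rise of the 8 genes in BM. It was at 454, 436 and 432 CPM in BM, against 154, 139 and 149 CPM in WT (2.99-fold, log2 1.58, SE 0.118, edgeR adjusted p = 1.28e-07). Both beta chains went the other way: Csf2rb was at 367, 424 and 412 CPM in BM, against 587, 639 and 588 CPM in WT (1.51-fold lower, log2 -0.59, edgeR adjusted p = 4.45e-09). Csf2rb2 was at 55.9, 64.5 and 61.7 CPM in BM, against 73.2, 75.1 and 71.8 CPM in WT (1.21-fold lower, edgeR adjusted p = 0.00546), a call that was lost on TPM values with limma (log2 -0.17, adjusted p = 0.177). The sum of both chains was 462 ± 34.5 CPM in BM and 678 ± 31.2 CPM in WT (SD, n = 3), and the chains fitted as 1 gene fell by 0.56 on the log2 scale (edgeR adjusted p = 1.23e-08). The TPM ratio of Csf2ra to Csf2rb was accordingly 4.95, 4.24 and 4.16 in BM, against 1.05, 0.811 and 1.03 in WT.

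Csf1r was at 1081, 1186 and 1186 CPM in BM, against 771, 794 and 845 CPM in WT (1.43-fold higher, log2 0.52, SE 0.0555, edgeR adjusted p = 3.68e-08). Csf3r was at 256, 275 and 280.1 CPM in BM, against 142, 151 and 167 CPM in WT (1.77-fold higher, log2 0.82, SE 0.0593, edgeR adjusted p = 6.82e-11). The sum of the neutrophil markers went opposite to Csf3r here, at 756 to 933 CPM in BM and 4432 to 6346 CPM in WT. Without S100a8, the most abundant of them over all libraries, it was 581 to 725 CPM in BM and 1576 to 2969 CPM in WT, an alternative chosen after the values were seen. Of these 13 markers 1 was higher and 9 lower in BM, where 64% of all genes tested were called. Il6ra was at 122, 126 and 143 CPM in BM and 108, 98.3 and 88.5 CPM in WT, without overlap but not past the threshold (log2 0.41, 95% interval -0.13 to 0.96, edgeR adjusted p = 0.162). It passed with the 2 groups fitted alone (0.000343) and without Mixed 2 (0.0324), by edgeR.

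Between BM and WT, 7 of the 8 genes were called, 3 higher and 4 lower, where 64% of all genes were called, 32.1% higher and 31.9% lower. No member overlapped between the groups, as for 68.1% of all genes. The medians of 0.07 for the 8 genes and 0.003 for all genes were close to each other. This comparison shares its WT libraries with that of KO. Age was not labelled in BM, so tissue and age cannot be told apart.

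**Figure D4:**
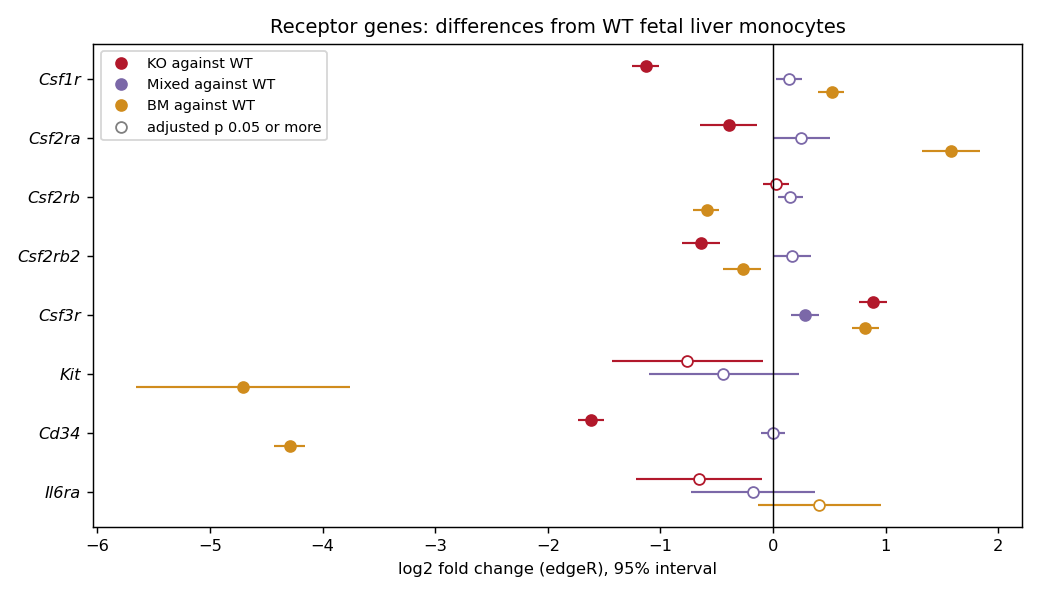
edgeR log2 fold change of the 8 receptor genes with 95% intervals for KO, Mixed and BM, each against WT; filled points have an adjusted p under 0.05. Csf3r lies above 0 in each comparison (0.89, 0.28 and 0.82), Csf1r at -1.13 in KO and 0.52 in BM, and Kit and Cd34 in BM at -4.71 and -4.29.

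The pathway genes in BM were described from the same lists, and their counts stand beside the 64% of all genes tested that were called. Both ligands that passed the filter were higher: Flt3l was at 11.2, 10.5 and 11.3 CPM in BM (1.76-fold) and Csf1 at 1.87, 2.28 and 3.27 CPM, against 0.502, 0.357 and 1.74 CPM in WT (2.83-fold, edgeR adjusted p = 0.0108). Of 10 related receptors, 4 were higher and 2 lower. Il6st, the signalling chain that Il6ra shares with the receptors for LIF and IL-11, was at 170.4, 166 and 169 CPM in BM, against 42.6, 45.3 and 46.2 CPM in WT (3.76-fold, edgeR adjusted p = 2.6e-16), and Lifr was 4.05-fold higher. The TPM ratio of Il6st to Il6ra was 0.826 ± 0.0781 in BM and 0.233 ± 0.0345 in WT (SD, n = 3). Flt3 was 2.53-fold higher in BM.

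Of the 23 proximal signalling genes, 15 were higher and 5 lower in BM, with a list median of 0.56 beside 0.003 for all genes. The share called over all genes tested was 64%. Fgr was 3.94-fold and Tyrobp, a signalling adaptor of myeloid cells, 2.15-fold higher, while Jak3 was 4.23-fold and the phosphatase Ptpn11 2.1-fold lower. Of 15 negative regulators 9 were higher, led by Dusp6 (1.82-fold), and 4 lower, led among those named by Dok2 (2.72-fold) and Socs3 (1.94-fold). Of 12 STAT targets 4 were higher and 7 lower. The D-type cyclins Ccnd2 (10.5-fold) and Ccnd1 (8.28-fold) and the growth regulator Myc (3.29-fold) were lower, and Osm, which encodes the cytokine oncostatin M, was 4.57-fold higher. Of 16 transcription factors 5 were higher, with Klf4 (3.38-fold), Cebpa (2.18-fold) and Zeb2 (2.16-fold) leading, and 6 lower, among them Maf (4.17-fold) and Cebpe (2.59-fold).

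Mixed monocytes differed from WT in 1 of the 8 genes, where 8.07% of all genes were called, 4.21% higher and 3.87% lower. Csf3r was at 185, 183 and 191 CPM in Mixed, against 142, 151 and 167 CPM in WT (1.22-fold higher, log2 0.28, SE 0.0593, edgeR adjusted p = 0.00515). Between these groups 5 of the 8 genes did not overlap, beside 27% of all genes. Csf1r was at 904, 848 and 904 CPM in Mixed and Csf2rb at 677, 655 and 685 CPM, each above every WT library and short of the threshold (edgeR adjusted p = 0.13 and 0.0928). Csf2rb2, at 82.2, 80.8 and 85 CPM in Mixed, likewise lay above every WT library (edgeR adjusted p = 0.207). Cd34, at 548, 525 and 527 CPM in Mixed and 524, 519.9 and 560.3 CPM in WT, had a log2 difference of 0 with a 95% interval of -0.11 to 0.11. Csf2ra varied within the group, at 184, 208 and 135 CPM in Mixed. Without Mixed 3 it was called higher (log2 0.41, edgeR adjusted p = 0.00241), and with it not (log2 0.25, adjusted p = 0.225). Il6ra spread too, at 65.1, 119.8 and 74.6 CPM in Mixed (log2 -0.18, 95% interval -0.73 to 0.37). Kit, at 24.3, 22.9 and 19 CPM in Mixed, lay below every WT library (log2 -0.44, edgeR adjusted p = 0.446).

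Against Mixed, whose genotype label is WT, the KO libraries showed 5 called members, 1 higher and 4 lower, where 36.7% of all genes were called, 18.2% higher and 18.5% lower. Without overlap were 6 of the 8, all but Kit and Il6ra, beside 48.3% of all genes. Cd34 (3.06-fold), Csf1r (2.41-fold), Csf2rb2 (1.75-fold) and Csf2ra (1.57-fold) were lower in KO and Csf3r (1.52-fold) higher, each with an edgeR adjusted p of 0.000883 or less. The KO libraries are shared with the comparison against WT, so these values are not independent of it. All KO libraries came from E13.5 and all Mixed libraries from E15.5, so genotype label and embryonic day cannot be told apart here. The Csf2ra call was lost with embryonic day as a covariate (log2 -0.74, adjusted p = 0.0995, edgeR), a term that rests on WT 1 against WT 2 and WT 3. Csf2rb was at 596 to 628 CPM in KO and 655 to 685 CPM in Mixed and was not called (log2 -0.13, edgeR adjusted p = 0.0805). It was called without BM 1 (0.0464), on TPM values with limma (log2 -0.29, adjusted p = 0.00222) and when Csf2rb and Csf2rb2 were added together (log2 -0.19, adjusted p = 0.0101). Among related receptors and negative regulators, Flt3 was 9.65-fold and Cish 6.35-fold higher in KO than in Mixed.

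Between BM and Mixed 7 of the 8 genes were called, 3 higher and 4 lower, where 58.4% of all genes were called, 29.5% higher and 28.9% lower. None of the 8 overlapped between the groups, as for 64.2% of all genes. Cd34 (19.6-fold), Kit (19.3-fold), Csf2rb (1.68-fold) and Csf2rb2 (1.36-fold) were lower in BM, and Csf2ra (2.51-fold), Csf3r (1.45-fold) and Csf1r (1.3-fold) higher. Kit's difference came to 7-fold on TPM values with limma. Il6ra was at 122 to 143 CPM in BM and 65.1 to 119.8 CPM in Mixed (log2 0.59, edgeR adjusted p = 0.0612). It was called without Mixed 2 (log2 0.9, adjusted p = 0.00115), without KO 1 (0.0486) and by DESeq2 (0.0339).

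Between BM and KO 7 of the 8 genes were called as well, 4 higher and 3 lower, where 63.8% of all genes were called, 31.8% higher and 32% lower. Without overlap were 7 of the 8, beside 67.7% of all genes. Csf2ra was 3.93-fold, Csf1r 3.14-fold, Il6ra 2.1-fold and Csf2rb2 1.29-fold higher in BM, and Kit 15.4-fold, Cd34 6.39-fold and Csf2rb 1.54-fold lower. Kit's difference came to 5.43-fold on TPM values with limma. Il6ra was at 122, 126 and 143 CPM in BM, against 78.2, 51.6 and 56.1 CPM in KO (log2 1.07, SE 0.242, edgeR adjusted p = 0.00401). Csf3r overlapped, at 256 to 280.1 CPM in BM and 276 to 288 CPM in KO (log2 -0.07, 95% interval -0.19 to 0.05, edgeR adjusted p = 0.316). Its direction depended on the scale: on TPM values with limma the difference was 0.16 (adjusted p = 0.0308), where the median of all genes stood at 0.198.

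The order of the 8 genes by TPM differed between groups. In KO, Csf2rb led (149.8 ± 7.57 TPM), followed by Csf1r (111 ± 9.88), Csf3r (109 ± 2.97) and Csf2ra (107 ± 2.66), neighbours whose libraries overlapped, and Cd34 came next (80.8 ± 5.52). In BM, Csf2ra led (507 ± 19.9 TPM) before Csf1r (413 ± 12), with Csf3r (122 ± 5.84) and Csf2rb (115 ± 7.65) overlapping after them. In Mixed, Csf1r (304 ± 13 TPM) and Cd34 (283 ± 11.2) led and overlapped, as did Csf2ra (196 ± 44.8) and Csf2rb (183 ± 5.6). In WT, Csf1r (276 ± 8.13 TPM) and Cd34 (275 ± 7.42) likewise led and overlapped, before Csf2rb (165 ± 10.7) and Csf2ra (158 ± 14.6), which also overlapped (SD, n = 3 throughout). Kit was the lowest of the 8 in every group, from 0.53 ± 0.523 TPM in BM to 8.32 ± 1.62 TPM in WT. In BM it was at 1.1, 0.422 and 0.069 TPM, a wider spread than on CPM, where BM 1 and BM 2 were alike. Summed over the 8 genes, TPM was 593 ± 30 in KO, 1106 ± 44.9 in Mixed, 1237 ± 16 in BM and 1004 ± 7.74 in WT. Of that sum Csf3r held 18.5% in KO and 6.69% in WT, and Cd34 held 13.6% in KO, 1.21% in BM and 27.4% in WT.

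**Figure D5:**
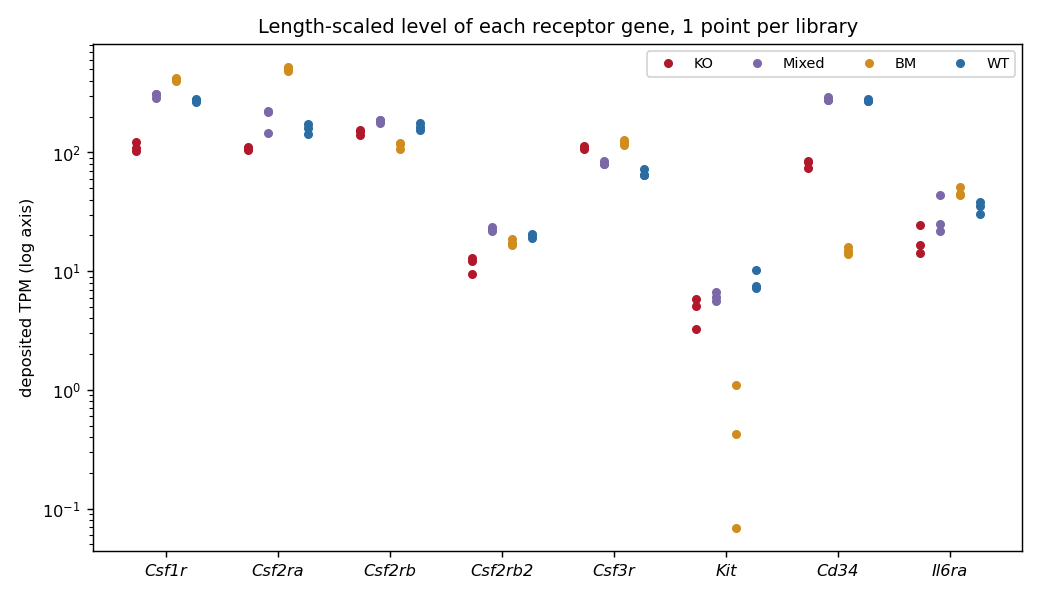
Deposited TPM (log axis) of the 8 receptor genes, with 1 point per library and KO, Mixed, BM and WT from left to right within each gene. On average Csf1r and Cd34 lead in WT (276 and 275 TPM), Csf2rb leads in KO (149.8 TPM) and Csf2ra in BM (507 TPM), and Kit is lowest in each group.

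Over the 12 libraries the members fell into sets that varied together on log2 CPM. Kit, Cd34 and Csf2rb correlated with each other at r = 0.88 to 0.92, and Csf1r, Csf2ra and Il6ra at 0.76 to 0.78. Between these sets r was negative, from -0.88 (Csf2ra with Csf2rb) to -0.25 (Csf1r with Cd34). Csf3r correlated with Csf2rb2 at -0.77. These are descriptions over 12 libraries that share 4 group means and library sizes. Among 8083 genes averaging at least 3 log2 CPM, the named genes most like Csf1r were Slc16a10, Adam15 (r = 0.997 each) and Zeb2 (0.996), those most like Cd34 were Jpt2 (0.995), AI506816 and Cdk4 (0.994 each), and those most like Csf3r were Acox3 (0.992), Anxa2 (0.99) and Il16 (0.989). For Csf2ra they were Camkk2 (0.992), Dok3 and Arhgef1 (0.99 each), and for Csf2rb Clpp, Ints10 (0.986 each) and Uhrf1 (0.982). For Csf2rb2 the highest was Mdc1 (0.96), for Kit Cdc25a (0.988) and for Il6ra P2ry1 (0.984).

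Promoters, taken as the 250 bases before the gene start in RefSeq's table for GRCm38.p6, were given for 6 of the 8 genes. They were searched on both strands for CACCTG, an E-box that ZEB proteins are known to bind, GAGGAA (PU.1 and ETS factors), TGTGGT (RUNX) and TTNNGCAA (C/EBP), none of which contains another. CACCTG was found in Il6ra alone, and 17.1% of 27025 promoters held it. GAGGAA was found in 5 of the 6, all but Cd34, beside 23.1% of all promoters, and TGTGGT and TTNNGCAA in none, beside 14.2% and 9.55%. In Csf2ra and Csf3r the GAGGAA matches reached into the gene as GENCODE annotates it, which starts before the RefSeq start. A match describes letters and not a bound site. The lines below show the stretches before the annotated gene for Cd34 and Csf2rb2, both lower in KO, and for Il6ra, with motif matches in capitals and read 5′ to 3′ on the strand of the gene.
Cd34, GRCm38.p6 chr1:194938571-194938818, plus strand: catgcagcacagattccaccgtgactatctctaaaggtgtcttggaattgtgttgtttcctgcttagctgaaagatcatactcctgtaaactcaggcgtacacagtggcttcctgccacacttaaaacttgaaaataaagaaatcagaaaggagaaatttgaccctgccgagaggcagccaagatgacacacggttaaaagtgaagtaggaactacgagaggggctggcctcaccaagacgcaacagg
Csf2rb2, GRCm38.p6 chr15:78305722-78305971, minus strand: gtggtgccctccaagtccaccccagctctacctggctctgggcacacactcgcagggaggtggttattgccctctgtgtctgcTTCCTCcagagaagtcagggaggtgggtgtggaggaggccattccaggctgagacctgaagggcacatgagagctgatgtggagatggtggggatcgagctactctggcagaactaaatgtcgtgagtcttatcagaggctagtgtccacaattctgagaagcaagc
Il6ra, GRCm38.p6 chr3:89913197-89913446, minus strand: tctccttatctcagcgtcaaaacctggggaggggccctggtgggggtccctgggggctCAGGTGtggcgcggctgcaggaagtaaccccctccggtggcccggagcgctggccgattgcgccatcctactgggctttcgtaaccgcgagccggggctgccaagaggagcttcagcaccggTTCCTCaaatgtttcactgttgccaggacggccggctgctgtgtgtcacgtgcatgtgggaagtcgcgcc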

How the data were processed

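Bulk RNA-seq was measured in 12 libraries of Ly6C+ monocytes. Per the labels' protocols, RNA was isolated with NucleoSpin RNA XS, and libraries were made with the SMARTer Ultra Low kit and sequenced on a NovaSeq X Plus. The authors deposited estimated counts per gene and TPM values. The submitters' processing notes name DRAGEN, STAR, Subread, featureCounts and Salmon, without role or order, and mm10 as the build. Among deposited counts above 0, 28.5% departed from whole numbers (tolerance 1e-06), so reads were divided between transcripts by an estimate. The deposited CPM table was not used here.

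Of 55774 rows, 287 repeated a gene with identical values and were dropped, and counts were rounded to whole numbers. Genes passed edgeR's filterByExpr (minimum count 10, minimum total 15): 14618 remained and 40869 were removed. edgeR 4.0.16 (R 4.3.3) fitted all 12 libraries with a mean per group, TMM scaling and robust quasi-likelihood (common coefficient of variation 0.0917). Two-sided p-values were adjusted by Benjamini-Hochberg over all genes tested, and genes under 0.05 were called. TPM values, log2(TPM + 0.5), limma 3.58.1, limma-voom and DESeq2 1.42.0 served as alternatives, together with other scalings, filters, a 1.5-fold threshold, single libraries left out, a block and embryonic day. The fit was tested on simulated data. Ratios were compared by exact permutation over libraries.

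Sequences came from GENCODE M21 (GRCm38), aligned with Biopython 1.88, and RefSeq promoters (GRCm38.p6). The 8 members and the lists were chosen with earlier results of these data known. Per list, up to 3 called genes higher and 3 lower by fold change, averaging at least 1 log2 CPM, could be named against WT in KO and BM, 1 each elsewhere, and of marker lists the most abundant and up to 2 called. Ly6c2, Csf1, Csf2, Csf3, Il3, Spi1, Ngp, Ltf, Camp, Cdh5, Emcn, Tpsb2 and Cma1 were named after their values were seen. Some genes that the rule names are left out of the text.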

Additional observations from a re-analysis of the deposited data

How the results depend on the processing

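Of 1122 recomputed values of single members, 1069 kept direction and call, 20 lost a call, 23 gained one and 10 turned round. Against a 1.5-fold threshold (edgeR) the members called numbered 3 in KO against WT, 0 in Mixed against WT, 4 in BM against WT, 3 in KO against Mixed, 4 in BM against Mixed and 5 in BM against KO. At that threshold no gene of the table was called in Mixed against WT, where 4 members had an unadjusted edgeR p under 0.05 without the threshold and DESeq2 and limma-voom called 1 member each. Over all genes it left 1345 in KO against WT, 0 in Mixed against WT, 4247 in BM against WT, 1357 in KO against Mixed, 3224 in BM against Mixed and 4309 in BM against KO, in place of 5565, 1180, 9351, 5365, 8535 and 9330. In Mixed against WT 2 members were called with no filter and 2 with the 2 groups fitted alone. With 1 library left out, members called ran from 4 to 6 in KO against WT, 1 to 2 in Mixed against WT (2 without Mixed 3), 7 to 8 in BM against WT, 5 to 6 in KO against Mixed, 7 to 8 in BM against Mixed and 7 to 7 in BM against KO. All genes called in Mixed against WT fell to 414 without Mixed 1, 665 without Mixed 3, 464 without WT 1 and 688 without WT 2 (range 414 to 1457), to 711 on TPM with limma and to 399 with embryonic day as a covariate, which left 1978 in KO against Mixed. The difference of Cd34 in Mixed against WT, near 0, changed sign with no filter (0.01), the 2 groups alone (0), TPM (0.04) and without Mixed 2 (0.01), Mixed 3 (0), BM 2 (0) or WT 3 (0.03), and with 1 library left out it ran from -0.02 to 0.03. Csf2rb in KO against WT turned to -0.14 on TPM and -0.03 with the beta chains added, and Csf3r in BM against KO to 0.16 on TPM. TPM moved the median of all genes to -0.139 in KO against WT, -0.176 in KO against Mixed and 0.198 in BM against KO. With replicate number as a replicate block, members called were 5, 1, 7, 5, 7 and 7 in the 6 comparisons in the order given above, with BM against KO last, and the block changed no member's call; over all genes it called 5525 in KO against WT. Libraries of the same number in different groups deviated together at r = -0.035 to 0.069, and those of other numbers at -0.066 to 0.046. Such values over all genes cannot exclude a shared origin of libraries with the same number, and no pairing is labelled. Of the 12 libraries 4 correlated best with their own number in another group. The causes of these changes were not tested. Kit in BM rests on 3 to 35 counts per library, and its 26.1-fold difference from WT came to 9.25-fold on TPM with limma, where the pseudocount of 0.5 is close to the BM level.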
